A study of Mus musculus with 9 samples.

Results

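The AP-1 and ATF transcription factors described here are 10 genes of the basic leucine zipper (bZIP) class: Fos, Fosb, Fosl1 and Fosl2 of the Fos family, Jun, Junb and Jund of the Jun family, and Atf3, Batf and Maff. They were taken from the deposited count table by gene symbol, and all 10 had a row among the 24061 symbols of the table. Reads had been counted for 9 of the 10. RNA-seq was performed on bone-marrow-derived macrophages (BMDMs), which are grown from mouse marrow cells with medium conditioned by L cells, a source of macrophage colony-stimulating factor. Marrow came from female C57BL/6J mice aged 8 to 10 weeks, and cells were differentiated for 7 days, deprived of serum for 1 day and treated on day 8. In every group the medium held L-cell medium at 20% during growth and at 4% during treatment.

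There were 3 groups with 3 libraries each. Vehicle (Veh) cells received DMSO. LPS cells received DMSO for 3 hr and then lipopolysaccharide, the bacterial agonist of Toll-like receptor 4 (TLR4), at 10 ng/mL for 2 hr. T0+LPS cells received T0901317 (T0), an agonist of the liver X receptors (LXRs), at 500 nM for 3 hr and then the same LPS for 2 hr with T0 still present. The harvest time of the Veh libraries was not given in the sources used here, so LPS and time in culture cannot be told apart in comparisons with Veh. RNA from cells given T0 without LPS was not analysed here. Total counts per library lay between 13299044 and 16467983, and the median library held 15086484 in Veh, 13661218 in LPS and 15320506 in T0+LPS. Levels are given as CPM, counts scaled to a common library size with trimmed mean of M-values (TMM) factors over the 9 libraries. A value after ± is the SD over the n = 3 libraries of a group, and SE is the standard error of a fitted log2 fold change. In bulk RNA a smaller share of expressing cells and less RNA per cell cannot be told apart.

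AP-1 is a family of dimers that bind DNA through a basic region and pair through a leucine zipper. Fos proteins need a Jun partner, whereas Jun proteins can also pair among themselves or with ATF proteins, and the makeup of the dimer sets whether a site of the TRE type or of the cAMP-response (CRE) type is preferred. In macrophages, TLR4 activates MAP kinases, which phosphorylate Jun and ATF proteins and drive transcription of Fos through serum response factor (SRF) and its ternary complex cofactors. The mRNAs of Fos, Jun, Junb and Atf3 belong to the immediate-early class, known for fast and often brief induction. Atf3 is a stress-induced repressor known to restrain TLR-driven cytokine genes, Batf lacks a transactivation domain and pairs with Jun proteins, and Maff is a small Maf protein that also lacks such a domain.

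Measured cells carried the genes of macrophages. The summed level of 8 macrophage markers was 27714 ± 1227 CPM in Veh, 32809 ± 791 CPM in LPS and 35753 ± 765 CPM in T0+LPS. Lyz2, the lysozyme of myeloid cells, was the most abundant of them, at 19747 CPM on average in Veh. Of the 7 tested in LPS against Veh, 4 were called higher, among them Cd14, and 2 lower, Mertk and Fcgr1, with log2 fold changes of -0.81 and -0.84. In T0+LPS against LPS, 1 of the 7 was called higher and 0 lower. This was Mertk, at 72.8 ± 3.63 CPM against 34.8 ± 1.17 CPM, with a log2 fold change of 1.06 (edgeR adjusted p = 2.9e-08). Itgam alone of the 8 was at 0, on 3 bases that its rows did not share with another row. Markers of other cells were low: the sum over the 7 of 8 neutrophil genes with a row averaged 1.68 CPM in Veh, 3.55 CPM in LPS and 2.91 CPM in T0+LPS, with every LPS library above every Veh library. Its most abundant gene, S100a8, was called higher in LPS than in Veh, with a log2 fold change of 1.22, and S100a9 had only 3 unshared bases and no reads, so it was unmeasured. The 6 T and NK cell genes summed to at most 0.228 CPM in any library, with Cd3e at 0 and Cd3d the most abundant over the 9 libraries. The 5 fibroblast genes summed to at most 0.661 CPM, with Pdgfra and Dcn at 0 and Col1a2 the most abundant. The 5 B cell genes, led by Cd79b and with Pax5 at 0, had mean sums of 2.09 CPM in Veh, 1.32 CPM in LPS and 1.13 CPM in T0+LPS. The 4 dendritic cell genes, led by Xcr1 and with Siglech at 0, had mean sums of 0.343 CPM in Veh, 2.51 CPM in LPS and 2.59 CPM in T0+LPS. The part of these marker differences in the results was not tested.

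Genes known to respond to each treatment were measured as a check. Abca1, the cholesterol efflux transporter and a classic LXR target, averaged 729 ± 4.95 CPM in Veh and 1841 ± 159 CPM in LPS, and reached 5105 ± 185 CPM in T0+LPS. T0+LPS lay above LPS by a log2 fold change of 1.47 for Abca1, 2.09 for Abcg1 and 1.30 for Srebf1, with the highest of the 3 adjusted p-values at 1.4e-10 by edgeR's quasi-likelihood test. The cytokine Il1b was at 1.78 ± 1.20 CPM in Veh, was higher at 1143 ± 136 CPM in LPS and was at 817 ± 87.5 CPM in T0+LPS. Tnf was measured on 48 bases only, where its mean level was 0.0812 CPM in Veh, 5.84 CPM in LPS and 4.90 CPM in T0+LPS.

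Where a member lies decides how it was counted, because the deposited counts leave out reads on bases that several rows share. On mm10, Fos was counted on chromosome 12 from 85473901 to 85477270 on the plus strand, over 4 exons. Jun, on chromosome 4 from 95049036 to 95052222, and Junb, on chromosome 8 from 84976909 to 84978748, are both on the minus strand and have 1 exon each. Atf3 was counted over 4 exons on the minus strand of chromosome 1, from 191170297 to 191183333. Maff has 3 exons on chromosome 15 from 79347678 to 79359076 and Batf has 3 on chromosome 12 from 85686720 to 85709087, both on the plus strand. For these 6 genes and for Fosb and Fosl2, every exonic base was their own. Fosl1, on chromosome 19 from 5447698 to 5455938, had 550 such bases of 1705. Jund, on chromosome 8 from 70697739 to 70700616, is listed in 2 rows with the same exon, so no base was unshared, no read was counted and its level is unmeasured.

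Promoter sequence is shown for the 3 members that were lower in LPS than in Veh and for the 3 with the highest fold rise among the tested members with a promoter window, because these genes differed from Veh in opposite directions in the same libraries. The RefSeq promoter table (GRCm38.p6) held 9 of the 10 members, all but Fosl1. Each line gives 120 bases that end just before the RefSeq start of transcription, 5′ to 3′ on the strand of the gene. Capitals mark the motifs TGACG, the core of CRE-type sites, TGACNTCA, a full CRE-type site, and TGANTCA, the TRE-type site of AP-1, on either strand. TGACG lies within TGACNTCA wherever N is G.
Fos, chr12:85473770-85473889, plus strand: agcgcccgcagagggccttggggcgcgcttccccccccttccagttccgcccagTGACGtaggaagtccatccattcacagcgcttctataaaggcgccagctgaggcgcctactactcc
Jun, chr4:95052223-95052342, minus strand: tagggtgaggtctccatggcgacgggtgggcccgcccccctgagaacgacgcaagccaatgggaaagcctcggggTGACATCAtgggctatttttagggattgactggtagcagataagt
Atf3, chr1:191183334-191183453, minus strand: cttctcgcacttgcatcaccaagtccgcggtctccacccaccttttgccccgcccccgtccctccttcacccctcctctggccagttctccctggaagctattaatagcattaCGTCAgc
Junb, chr8:84978749-84978868, minus strand: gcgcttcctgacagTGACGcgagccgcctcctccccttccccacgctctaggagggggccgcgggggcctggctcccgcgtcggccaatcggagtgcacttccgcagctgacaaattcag
Batf, chr12:85686600-85686719, plus strand: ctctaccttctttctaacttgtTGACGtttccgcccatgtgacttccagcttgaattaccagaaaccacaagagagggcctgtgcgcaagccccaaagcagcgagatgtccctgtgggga
Maff, chr15:79347400-79347519, plus strand: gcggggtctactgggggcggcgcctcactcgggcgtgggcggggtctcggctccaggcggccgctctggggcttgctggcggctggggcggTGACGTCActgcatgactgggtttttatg

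Over the 250 bases before the start, TGACG was found in 6 of the 9 members' windows (Fos, Fosb, Junb, Atf3, Batf and Maff), against 17.8% of all 32851 windows in the table. TGACNTCA was found in Jun and Maff, 2 of 9, against 7.49% of all windows. TGANTCA was found in 0 of 9, against 6.75%. The SRF motif known as the CArG box was in 0 of the 9 windows and in 1.47% of all, and the NF-kB motif was in those of Fos, Fosb and Fosl2, against 7.25% of all. A match describes these letters only, and sites more than 250 bases before the start were not searched. The RefSeq start differed from the start of the counted row by 11 bases for Fos and by 158 bases for Maff, and by 0 for the others.

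The comparison of LPS with Veh asks how the members stood 2 hr into TLR4 stimulation. Members of the same family went in opposite directions: Fos, Jun and Atf3 were lower in LPS than in Veh, while Fosl2, Junb, Batf and Maff were higher. Of 9559 genes tested with edgeR's quasi-likelihood test at an adjusted p under 0.05, 32.9% were called higher and 31.2% lower. With libraries scaled by their totals alone, 1694 genes were called higher and 5411 lower, in place of 3148 and 2981, and the calls of the members were the same. Among the members 7 of 10 passed the filter on low counts, each with at least 36 reads in every library, and 4 of these were called higher and 3 lower. With 64.1% of all tested genes called, a call alone sets a member little apart, and the sizes of the changes say more.

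Fos, the founding partner of Jun in AP-1, was at 81.8, 75.6 and 71.4 CPM in the 3 Veh libraries, at 3.80, 3.93 and 3.24 CPM in LPS, and at 5.86, 3.06 and 3.61 CPM in T0+LPS. All 6 stimulated libraries were far below all Veh libraries, and the LPS and T0+LPS libraries overlapped. The log2 fold change of LPS against Veh was -4.38 (SE 0.09, edgeR adjusted p = 4.7e-16), a level 20.8-fold lower in LPS. By fitted log2 fold change only 3 of the 9559 genes tested were lower, so Fos ranked 4 from the bottom.

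Jun, which can pair with every Fos protein, was at 281, 266 and 264 CPM in Veh, at 90.8, 101 and 92.8 CPM in LPS and at 120, 107 and 103 CPM in T0+LPS. The Veh libraries were the highest, and each T0+LPS library was above each LPS library by a small margin. LPS against Veh gave a log2 fold change of -1.51 (SE 0.05, edgeR adjusted p = 1.4e-13).

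Atf3 was at 1034, 1008 and 1018 CPM in Veh, at 230, 238 and 210 CPM in LPS and at 386, 339 and 348 CPM in T0+LPS. The 3 groups did not overlap, with Veh highest and LPS lowest. In LPS its level was 4.51-fold below Veh, a log2 fold change of -2.17 (SE 0.05, edgeR adjusted p = 6.2e-16).

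Junb, a Jun protein with weaker transactivation than Jun, was at 246, 255 and 233 CPM in Veh, at 726, 714 and 713 CPM in LPS and at 559, 578 and 602 CPM in T0+LPS. The order was the reverse of Atf3, with LPS highest, T0+LPS between and Veh lowest in every library. The log2 fold change of LPS against Veh was 1.55 (SE 0.04, edgeR adjusted p = 1.1e-14). Fosl2, which encodes the Fos-related protein Fra-2, was at 46.5, 51.0 and 46.6 CPM in Veh, at 96.3, 84.4 and 91.9 CPM in LPS and at 71.6, 74.9 and 76.5 CPM in T0+LPS. Its groups were ordered as those of Junb and were also apart. LPS against Veh gave Fosl2 a log2 fold change of 0.92 (SE 0.06, edgeR adjusted p = 8.7e-10).

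Batf was at 4.01, 3.90 and 4.46 CPM in Veh, at 33.9, 31.9 and 33.3 CPM in LPS and at 26.9, 36.7 and 29.5 CPM in T0+LPS. Stimulated libraries were all above Veh, and the T0+LPS libraries spread to both sides of the LPS ones. Batf was 8.00-fold higher in LPS than in Veh, a log2 fold change of 3.00 (SE 0.09, edgeR adjusted p = 5.4e-14). Maff was at 2.89, 2.45 and 2.085 CPM in Veh, at 155, 161 and 138 CPM in LPS and at 137, 129 and 144 CPM in T0+LPS. Its LPS and T0+LPS libraries overlapped, far above Veh. Maff had the largest rise of the 7 tested members, 60.9-fold or a log2 fold change of 5.93 (SE 0.10, edgeR adjusted p = 1.5e-17), and ranked 67 from the top among all genes tested.

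**Figure D1:**
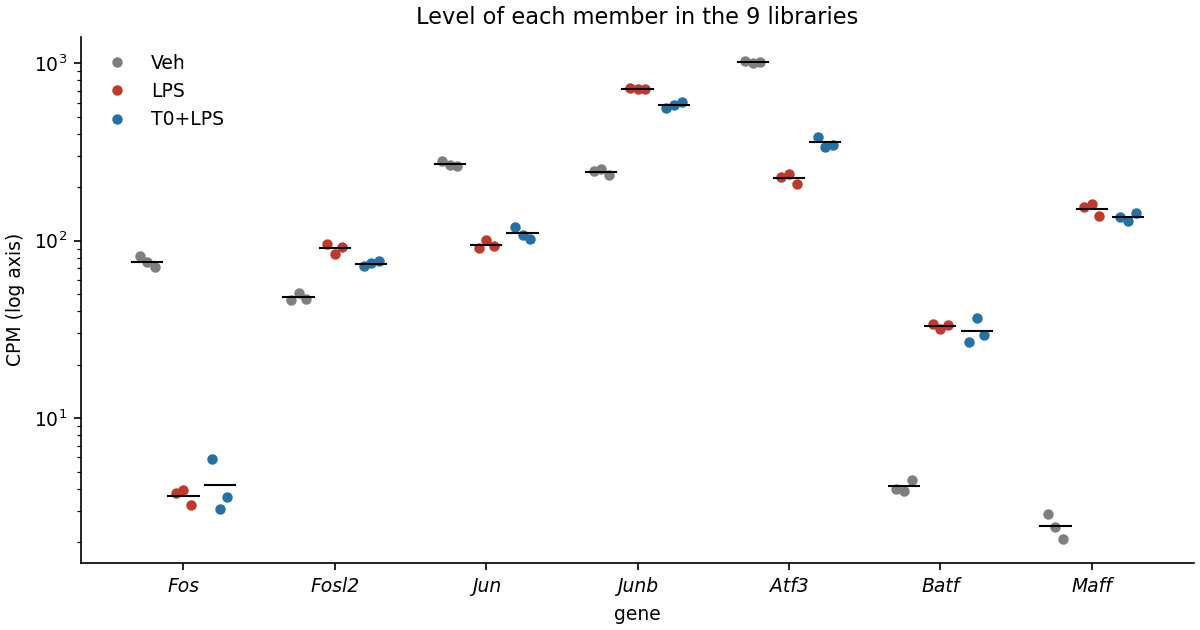
Level of each member above 1 CPM in at least 1 group, in CPM on a log axis, with 1 point per library and a line at the mean of each group of 3. Fos, Jun and Atf3 are highest in Veh, while Fosl2, Junb, Batf and Maff are lowest there, and for Atf3, Jun, Junb and Fosl2 the T0+LPS points lie between those of Veh and LPS.

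The remaining members were at the limit of these libraries. Fosl1, which encodes Fra-1, had 0 reads in each Veh library, 12, 7 and 13 reads in LPS and 6, 4 and 10 in T0+LPS. Reads were thus found in every stimulated library and in no Veh library. Set against a floor of 3 counts over the Veh group, its level was 13.9-fold higher in LPS and 8.13-fold higher in T0+LPS. These values leave out the counting error of the stimulated groups. Exact 95% Poisson intervals of its level were 0 to 0.0722 CPM in Veh and 0.557 to 1.15 CPM in LPS. In T0+LPS the interval was 0.291 to 0.737 CPM. Fosl1 did not pass the filter on low counts. The 6 alternative fits of LPS against Veh that tested Fosl1 called it higher, but it entered them through its reads in LPS alone, so these calls are a description only. Fosb, a close relative of Fos, had 24 reads in all in Veh, 27 in LPS and 21 in T0+LPS, and also did not pass the filter. The exact 95% Poisson intervals of its level, 0.301 to 0.699 CPM, 0.453 to 0.999 CPM and 0.310 to 0.766 CPM, overlapped. In the 6 alternative fits of LPS against Veh that tested Fosb it was not called, with log2 fold changes from 0.36 to 0.74 and edgeR adjusted p-values from 0.181 to 0.523. The Poisson intervals cover counting error only, and the floor is a fixed value of 3 counts.

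Set per kilobase of unshared exon, the levels of members can be compared with each other. In Veh the order was Atf3 (516 ± 6.68 CPM per kb), Junb (133 ± 5.93), Jun (84.8 ± 2.96), Fos (36.4 ± 2.51), Fosl2 (8.20 ± 0.441), Batf (4.56 ± 0.328), Maff (1.37 ± 0.223), Fosb (0.127 ± 0.0431) and Fosl1 at 0, and no neighbours overlapped. In LPS it was Junb (390 ± 3.90 CPM per kb), Atf3 (114 ± 7.33), Maff (84.1 ± 6.48), Batf (36.5 ± 1.15), Jun (29.8 ± 1.71), Fosl2 (15.5 ± 1.03), Fos (1.75 ± 0.175), Fosl1 (1.49 ± 0.493) and Fosb (0.182 ± 0.0740), where only Fos and Fosl1 overlapped. The order in T0+LPS differed from that in LPS in Jun (34.5 ± 2.79 CPM per kb) and Batf (34.3 ± 5.62), which exchanged places and overlapped. Junb (315 ± 11.6), Atf3 (181 ± 12.7) and Maff (75.8 ± 4.29) led in T0+LPS as in LPS.

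Summed per kilobase over the 9 measured members, the level was 785 ± 12.9 CPM per kb in Veh, 674 ± 15.5 in LPS and 657 ± 9.27 in T0+LPS. With TMM scaling the sum differed less between the groups than its makeup did. The sum depends on the scaling of libraries, whereas the shares do not, and it was not computed with other scalings. Atf3 made up 65.8% ± 0.758 of it in Veh, 16.97% ± 0.733 in LPS and 27.6% ± 1.82 in T0+LPS. Junb made up 16.96% ± 0.675 in Veh, 57.9% ± 1.10 in LPS and 48.0% ± 1.63 in T0+LPS. Maff went from 0.175% in Veh to 12.5% in LPS and 11.5% in T0+LPS. Jund is not in these sums.

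Ratios between members within a library do not depend on the scaling of libraries. The ratio of Junb to Jun, the more weakly against the more strongly transactivating Jun protein, was 1.52, 1.66 and 1.53 per kb in Veh, 13.8, 12.2 and 13.3 in LPS and 8.09, 9.36 and 10.2 in T0+LPS. The groups were apart, with T0+LPS between the others. For Fosl2 to Fos the ratio was 0.203, 0.241 and 0.233 in Veh, 9.04, 7.67 and 10.1 in LPS and 4.36, 8.73 and 7.58 in T0+LPS. Here LPS and T0+LPS overlapped, with T0+LPS replicate 1 the lowest of the 6. The ratio of Atf3 to Junb was 3.91, 3.68 and 4.06 in Veh, 0.295, 0.311 and 0.274 in LPS and 0.643, 0.547 and 0.538 in T0+LPS, with no overlap. For T0+LPS against LPS, the exact 2-sided permutation test gave p = 0.1 for Junb to Jun and for Atf3 to Junb, the smallest value that 3 against 3 libraries allow, and p = 0.2 for Fosl2 to Fos. These ratios were chosen after the levels were seen.

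**Figure D2:**
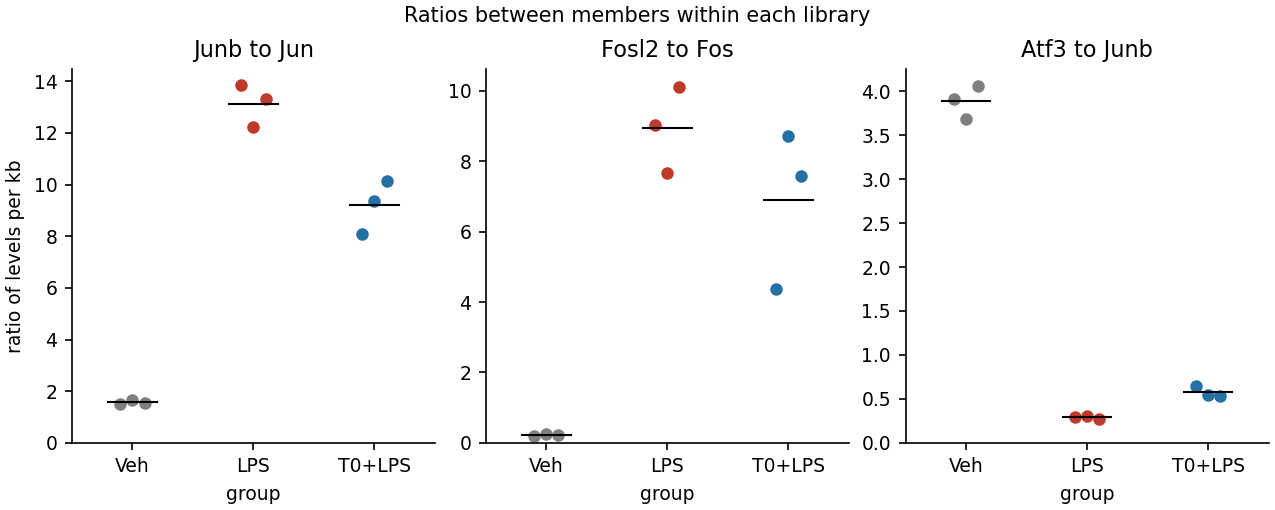
Ratio of the level per kb of 1 member to that of another within each library, for Junb to Jun, Fosl2 to Fos and Atf3 to Junb, on linear axes that start at 0, with 1 point per library and a line at the mean of 3. Junb to Jun averages 1.57 in Veh, 13.1 in LPS and 9.20 in T0+LPS, and the LPS and T0+LPS points overlap only for Fosl2 to Fos.

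T0+LPS against LPS is the comparison that differs in T0 alone, and asks how LXR agonist pretreatment changed the members in stimulated cells. Atf3 was higher with T0, Junb and Fosl2 were lower, and Fos, Jun, Batf and Maff were not called. Of 9348 genes tested by edgeR, 1.35% were called higher and 1.83% lower, and of the 7 members tested 1 was called higher and 2 lower. In 4 of the 7 (Atf3, Jun, Junb and Fosl2) the 3 libraries of each group did not overlap, as was the case for 19.1% of all genes tested.

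Atf3 was 358 ± 25.1 CPM with T0 and 226 ± 14.5 CPM without it, 1.58-fold higher, with a log2 fold change of 0.66 (95% confidence interval 0.54 to 0.79, edgeR adjusted p = 5.3e-06). This is still far below the Veh level, against which T0+LPS had a log2 fold change of -1.53. Junb was 580 ± 21.4 CPM with T0 and 717 ± 7.18 CPM without it, 1.24-fold lower, with a log2 fold change of -0.31 (95% confidence interval -0.40 to -0.21, edgeR adjusted p = 0.00079). For Fosl2, at 74.3 ± 2.49 CPM against 90.9 ± 6.03 CPM, the log2 fold change was -0.29 (95% confidence interval -0.41 to -0.16, edgeR adjusted p = 0.012). The call of Fosl2 was lost without LPS replicate 1, with a log2 fold change of -0.25 and an edgeR adjusted p of 0.0983, and without T0+LPS replicate 1, with -0.26 and 0.054. It was also lost with the replicate number as a block in DESeq2, with a log2 fold change of -0.29 and an adjusted p of 0.0793. Over all alternatives the adjusted p of Fosl2 was between 0.00033 and 0.0983.

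The members that were not called differ in what their intervals allow. Jun had a log2 fold change of 0.21 (95% confidence interval 0.07 to 0.35, edgeR adjusted p = 0.11), and it was called, with an adjusted p of 0.0121, only when every gene with a read was tested; over all alternatives that value reached 0.418. Maff had -0.15 (95% confidence interval -0.28 to -0.02, edgeR adjusted p = 0.26), and was called lower only without LPS replicate 3, with a log2 fold change of -0.21 and an adjusted p of 0.0408, the lowest of a range up to 0.898. For Batf the log2 fold change was -0.09 (95% confidence interval -0.29 to 0.12, edgeR adjusted p = 0.78). Fos had 0.18 with the widest interval, -0.31 to 0.66 (edgeR adjusted p = 0.81), on 144 reads in LPS and 173 in T0+LPS. Without T0+LPS replicate 1, the highest library for Fos, its log2 fold change was -0.13.

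**Figure D3:**
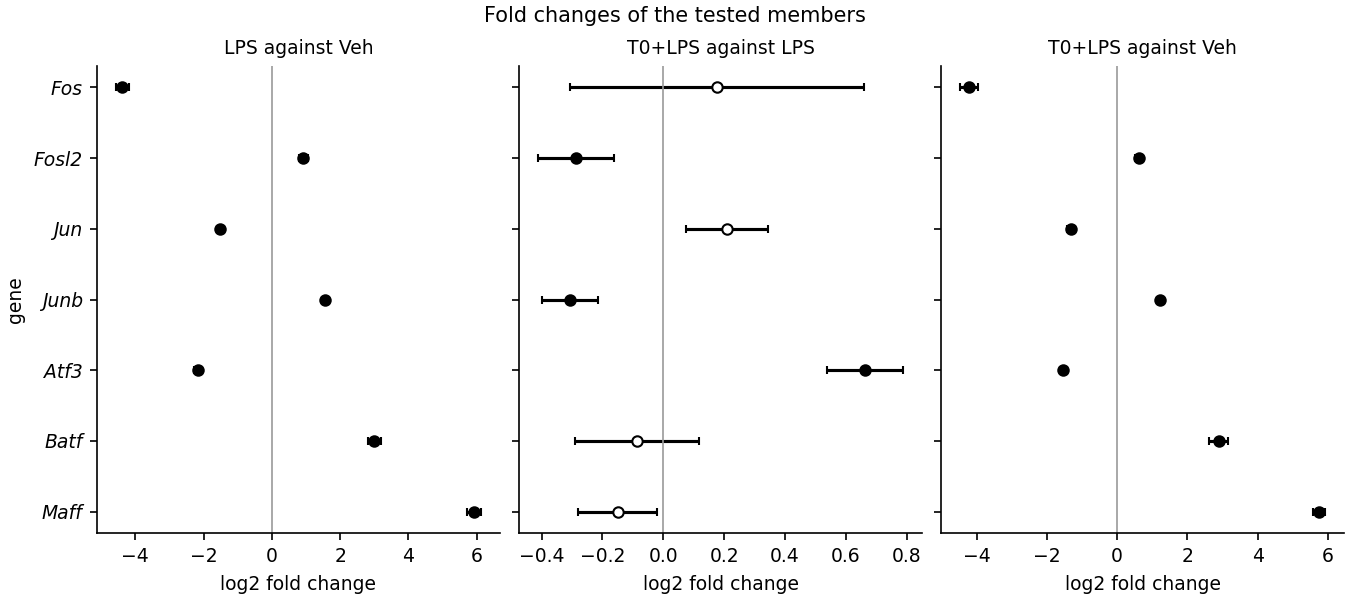
Fitted log2 fold changes of the 7 tested members in the 3 comparisons, with bars for the 95% confidence interval; filled points passed an edgeR adjusted p of 0.05 and open points did not, and the middle panel has a narrower axis than the others. Atf3 is at 0.66 and Junb at -0.31 in T0+LPS against LPS, and all 7 are called in both comparisons with Veh.

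In T0+LPS against Veh, which shares libraries with both comparisons above, edgeR called 32.4% of 9636 genes higher and 32.9% lower. The calls of the members were those of LPS against Veh, 4 higher and 3 lower of 7. Log2 fold changes were -4.23 for Fos, -1.32 for Jun and -1.53 for Atf3, and 0.61 for Fosl2, 1.22 for Junb, 2.89 for Batf and 5.75 for Maff. Beside them, the values of LPS against Veh were -4.38, -1.51 and -2.17, and 0.92, 1.55, 3.00 and 5.93. With T0 present, then, Junb was 2.33-fold above Veh where the LPS libraries were 2.94-fold above it, and Atf3 was 2.89-fold below Veh where the LPS libraries were 4.51-fold below.

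Among 28 other bZIP factors, which include possible partners of the members, 21 could be tested in LPS against Veh and 11 were called higher and 4 lower, where 64.1% of all genes tested were called, with a median log2 fold change of 0.22 against 0.00 for all genes tested. With libraries scaled by their totals alone, 7 were higher and 10 lower. Jdp2 and Cebpd were among the genes with the largest changes. Jdp2, a Jun-binding repressor, rose from 0.726 ± 0.288 CPM to 27.1 ± 1.69 CPM, a log2 fold change of 5.17 measured on 437 bases. Cebpd, a C/EBP factor of the acute-phase response, rose from 29.8 ± 0.00638 CPM to 254 ± 15.1 CPM. In all, 4 of the 28 (Atf2, Cebpa, Cebpb and Xbp1) had no reads, on 26 unshared bases or fewer each. In T0+LPS against LPS, 20 of the list were tested and 1 was called higher and 0 lower, where 3.18% of all genes tested were called. By edgeR, 3 of the 20 had an unadjusted p under 0.05. The median log2 fold change was 0.01 against 0.00 for all genes tested.

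Of 19 genes of the MAP kinase cascade, which relays TLR4 signals to AP-1 proteins, 15 were tested. Mapk9 and Map2k7 had 0 unshared bases and no reads, so they were unmeasured. In LPS against Veh 11 were called higher and 1 lower, beside 64.1% of all genes tested, with a median log2 fold change of 0.51, and with scaling by library totals 8 were higher and 3 lower. Mapkapk2, the kinase downstream of p38, rose from 339 ± 5.50 CPM to 1805 ± 19.2 CPM, a log2 fold change of 2.42. Map2k3, which activates p38, rose by a log2 fold change of 1.35, from 105 ± 4.02 CPM to 269 ± 2.13 CPM. Map3k1, a kinase upstream of JNK, fell from 212 ± 4.81 CPM to 68.7 ± 6.32 CPM. In T0+LPS against LPS, edgeR called 0 of the 15, beside 3.18% of all genes tested, and DESeq2 and limma-voom also called 0. By edgeR, 2 of the 15 had an unadjusted p under 0.05 (Map3k5 and Mapkapk2). The median log2 fold change was -0.03.

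A list of 9 genes held SRF, its cofactors and the MADS-box factors Mef2a, Mef2c and Mef2d, which are not SRF cofactors. Of these, 7 were tested, and in LPS against Veh 3 were called higher and 2 lower, beside 64.1% of all genes tested, with a median log2 fold change of 0.07. Scaling by library totals gave 1 and 3, and turned the direction of Srf and of Elk4, which was not called with TMM scaling. Elk3, a ternary complex factor, rose from 10.4 ± 0.669 CPM to 18.7 ± 2.30 CPM. Mkl1, an actin-responsive cofactor of SRF, fell from 12.1 ± 0.463 CPM to 8.24 ± 0.192 CPM, and Mef2d by a log2 fold change of -0.32. The call of Mkl1 was lost when rows were tested singly, with a log2 fold change of -0.25 in place of -0.55 and an edgeR adjusted p of 0.0987. In T0+LPS against LPS, edgeR, DESeq2 and limma-voom each called 0 of the 7, where edgeR called 3.18% of all genes tested. By edgeR, 1 of the 7 (Elk1) had an unadjusted p under 0.05.

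The other immediate-early genes give a measure of the class to which Fos, Jun, Junb and Atf3 belong. Of 11, 9 were tested, and in LPS against Veh 6 were called higher and 1 lower, beside 64.1% of all genes tested, with a median log2 fold change of 0.66; with library totals 4 were higher and 2 lower. Ier3, an early-response regulator of cell survival, rose from 3.85 ± 0.182 CPM to 30.4 ± 1.74 CPM. Ier2 rose from 36.3 ± 3.15 CPM to 74.3 ± 5.86 CPM, and Zfp36, which encodes the mRNA decay factor tristetraprolin, from 133 ± 4.36 CPM to 266 ± 5.15 CPM. Egr3 and Myc had no reads, on 134 and 0 unshared bases. T0+LPS against LPS had 0 called higher and 2 lower, beside 3.18% of all genes tested, with a median log2 fold change of -0.13. By edgeR, 5 of the 9 had an unadjusted p under 0.05 (Dusp1, Egr1, Ier2, Ier5 and Zfp36), all lower with T0. Ier2 was at 56.0 ± 4.72 CPM with T0, a log2 fold change of -0.41 (edgeR adjusted p = 0.0042), and Zfp36 at 224 ± 16.2 CPM, a log2 fold change of -0.25 (edgeR adjusted p = 0.015). The call of Zfp36 was lost without LPS replicate 1, without T0+LPS replicate 1 and without T0+LPS replicate 2, with log2 fold changes of -0.25, -0.21 and -0.22 and edgeR adjusted p-values of 0.0695, 0.07995 and 0.105.

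Of 11 genes described with AP-1 sites in their regulatory regions, 10 were tested. Timp1 had 3 unshared bases and no reads, so it was unmeasured. LPS against Veh had 8 called higher and 1 lower, beside 64.1% of all genes tested, with a median log2 fold change of 2.40. With library totals 8 were higher and 2 lower. Ptgs2, the inducible cyclooxygenase, was at 1.45 ± 0.957 CPM in Veh and 850 ± 32.2 CPM in LPS. Il6 went from 0.163 ± 0.148 CPM to 29.7 ± 3.21 CPM, and the chemokine Ccl2 from 1.93 ± 0.237 CPM to 75.2 ± 7.94 CPM. With T0, 1 was higher and 3 were lower, beside 3.18% of all genes tested, with a median log2 fold change of -0.21. By edgeR, 6 of the 10 had an unadjusted p under 0.05 (Ccnd1, Hmox1, Il6, Mmp13, Plaur and Ptgs2). The list was chosen with earlier results of these data known, so these counts do not test genes with AP-1 sites as a class. Ptgs2 was at 530 ± 71.4 CPM with T0, a log2 fold change of -0.68 (edgeR adjusted p = 4.4e-05). Plaur, the urokinase receptor, was at 227 ± 4.30 CPM against 296 ± 17.6 CPM, with a log2 fold change of -0.39. Ccnd1, the cell cycle gene cyclin D1, had -0.44, at 30.4 ± 2.57 CPM against 41.1 ± 2.63 CPM. Hmox1, heme oxygenase 1, was higher, at 441 ± 28.6 CPM against 351 ± 11.1 CPM, a log2 fold change of 0.33. Binding of AP-1 at these genes was not analysed here.

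**Figure D4:**
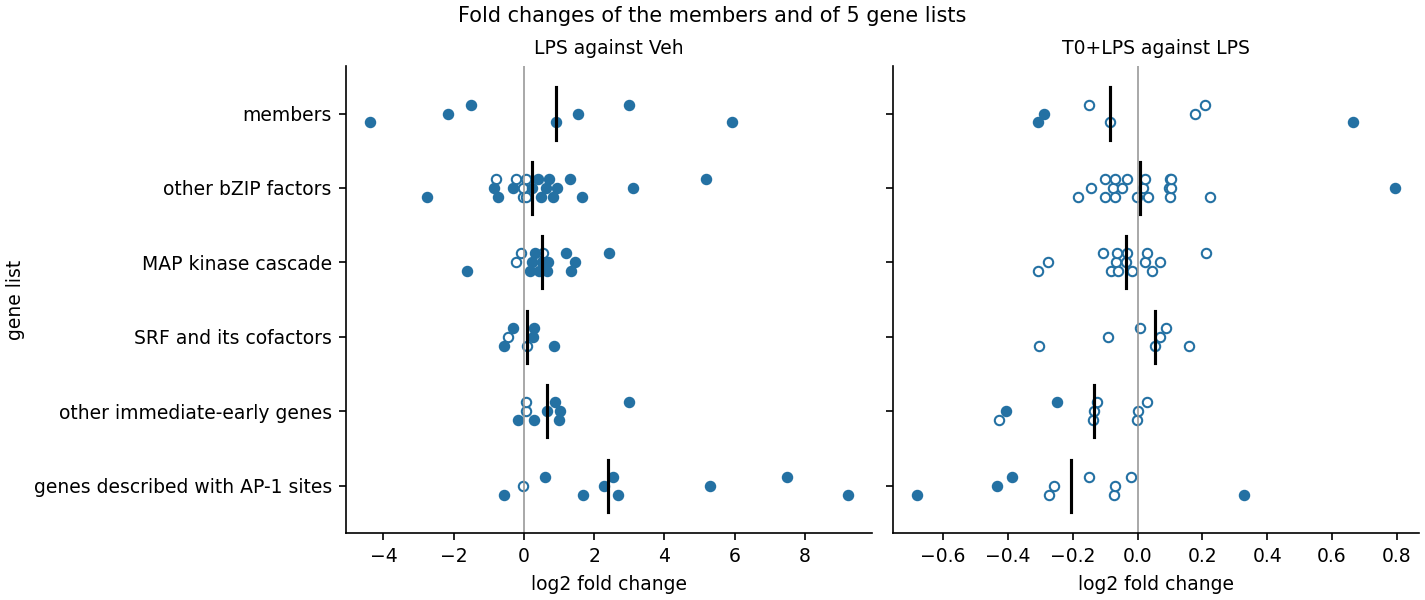
Fitted log2 fold changes of the tested members and of the tested genes of 5 lists in LPS against Veh and in T0+LPS against LPS, with 1 point per gene, filled where edgeR's adjusted p was under 0.05, and a line at the median of each list; points are spread vertically only to keep them visible, the axes of the panels differ, and the list named for SRF also holds the Mef2 genes. In T0+LPS against LPS the medians lie between -0.21 and 0.05, and among the members Atf3 at 0.66 lies highest.

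By the root mean square difference of centred log2 CPM over the 9 libraries, among 7292 genes with a mean of at least 5 CPM, the patterns nearest to Atf3 were those of Snx30 (0.121) and Cd300lb (0.136). Snx30 was at 167 CPM in Veh, 38.5 CPM in LPS and 51.6 CPM in T0+LPS on average. Near to Junb was Top1 (0.0412), and nearest to Jun were Slc30a1 (0.0599) and Cdk20 (0.0612), and to Fosl2, Ext1 (0.0515) and Sema4d (0.0574), the last on 64 unshared bases. Fos stood farther from any other gene, with Lpar6 (0.316) and Ier5l (0.349) nearest. Lpar6 averaged 123 CPM in Veh, 7.05 CPM in LPS and 10.4 CPM in T0+LPS. Batf was nearest to Ier3 (0.104) and Zhx2 (0.117), and Maff to Bcl2a1a (0.114), a gene with near-identical copies whose reads are uncertain, and Il27 (0.181).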

How the data were processed

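Polyadenylated RNA of 9 BMDM libraries, 3 each in Veh, LPS and T0+LPS, was sequenced. The authors used cutadapt to remove adaptors, HISAT2 for alignment to mm10 and featureCounts for counting on RefSeq transcripts. The deposited values are whole read counts, not normalized. The authors' own comparison of T0+LPS with LPS and their list of genes for LPS against Veh were not used. The members and lists were chosen with earlier results of these data known.

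Counts were summed over the rows of each symbol. Of 32850 rows, 6696 had no unshared base, and these held 0 reads. Each pair of groups was fitted with edgeR 4.0.16 in R 4.3.3: TMM factors, filterByExpr, the quasi-likelihood test and Benjamini-Hochberg adjustment over all genes tested, with calls at an adjusted p under 0.05. Standard errors are the absolute log2 fold change over the square root of F. Levels per kb are CPM over the kilobases of exon that no other row shares. The fit was tested on simulated data with 200 genes changed 1.5-fold. It recovered 75% of them in LPS against Veh, 72.5% in T0+LPS against LPS and 84% in T0+LPS against Veh. False calls numbered 11, 7 and 11. Smaller changes were not simulated. Library pairs within a group differed by more than sampling noise (chi-square per degree of freedom at least 2.75), and n counts separately differentiated cultures.

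Genes named beside the members are, for each list, the 3 called genes with the largest change in LPS against Veh (mean of at least 5 CPM in 1 group, no overlap between groups) and up to 4 called with the smallest adjusted p in T0+LPS against LPS; the 2 genes nearest in pattern to each member; the treatment genes; and the leading cell type markers; 2 genes that this rule takes are not reported here. Genes named for having no reads or an unadjusted p under 0.05 were chosen after their values were seen. The rule also does not cover Cd14, Mertk and Fcgr1, named for their calls, or Srf and Elk4, named for a turned direction. Alternatives were DESeq2 1.42.0, limma-voom (limma 3.58.1), other scalings and filters, rows tested by themselves, a fit to all 9 libraries, a replicate block, a threshold of 0.10 and leaving out each library.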

Additional observations from a re-analysis of the deposited data

How the results depend on the processing

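The 7 members called in LPS against Veh and in T0+LPS against Veh kept their direction and call in every alternative that was run. In T0+LPS against LPS, Atf3 (log2 fold change 0.61 to 0.70) and Junb (-0.33 to -0.28) did so as well. The call of Fosl2 was lost in 3 of 17 alternatives. With 1 library left out, the members called lower in T0+LPS against LPS numbered between 1 and 3; the log2 fold change of Fos, not called, lay between -0.13 and 0.36 and that of Batf, not called, between -0.22 and 0.0060.

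With scaling by library totals, all genes had a median log2 fold change of -0.28 in LPS against Veh and -0.29 in T0+LPS against Veh. It gave 1694 genes called higher and 5411 lower in LPS against Veh, where TMM gave 3148 and 2981, and 1659 and 5523 in T0+LPS against Veh, where TMM gave 3121 and 3172. Testing every gene with a read gave 2 members called higher (Jun beside Atf3) in T0+LPS against LPS, and 510 genes called, 225 higher and 285 lower, where the filtered fit gave 297, 126 and 171. The cause was not tested. Leaving out a library gave between 141 and 358 genes called in that comparison, 59 to 167 higher and 82 to 191 lower.

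Replicate numbers showed no sign of pairing the libraries by the correlation of deviations, which lay between -0.11 and 0.12 for equal numbers. Unequal numbers were not compared, and with 3 libraries per group a pairing is not excluded. The replicate block in edgeR left the members' calls as they were and gave 155 genes higher and 230 lower in T0+LPS against LPS. The replicate block in DESeq2, added after the data were seen, called 1 member lower (Junb) and 155 genes, 72 higher and 83 lower, and 2047 genes lower in T0+LPS against Veh; the cause was not tested. Jund could not be measured, and Fosb and Fosl1 did not pass the filter on low counts.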
